A study of Mus musculus with 3 samples.

Results

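The level of 5-methylcytosine (5mC) at gene promoters was read in TAPSβ, gene by gene, in E14 mouse embryonic stem cells (mESCs). All 21418 autosomal protein-coding genes of the GENCODE annotation of mm9 were considered, and for each the reads of all CpG cytosines within 500 bp of the gene start were summed. A gene was kept when at least 10 cytosines with reads and at least 100 reads stood behind its value, which left 18876 genes (88.1%). The gene start is the outermost 5′ end of the gene in the annotation, and the TAPSβ level is the share of reads in which the cytosine was read as modified.

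The values come from 3 methods applied to gDNA of the same mESC line, with 1 library for each method and no replicate. TAPSβ reports 5mC, because 5-hydroxymethylcytosine (5hmC) is blocked with glucose before the oxidation. CAPS reports 5hmC, and PS reports 5-formylcytosine and 5-carboxylcytosine together. No genetic change and no treatment other than the medium is given for the E14 cells, which grew on gelatin in serum with LIF and with the inhibitors PD0325901 and CHIR99021, of the MEK and GSK3 kinases. They are 1 established line, so no value has a spread between cultures. Intervals are exact (Clopper-Pearson) binomial 95% intervals, except that of the median level. The binomial intervals cover counting error only, and they are too narrow wherever 1 read covers several cytosines. No RNA was measured here, so a methylated promoter is not a measure of a silent gene.

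In mammalian genomes most CpGs carry 5mC, and the main exceptions are CpG islands, stretches dense in CpGs that lie at the promoters of most genes used in many tissues. Promoters of genes used in a single tissue are often poor in CpGs. A small number of CpG-dense promoters do carry 5mC in normal cells, among them promoters of imprinted genes, which are methylated on the copy from one parent, and promoters of genes used in germ cells. The inhibitors in the medium are known to lower 5mC across the genome of mESCs.

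Stretches of DNA just upstream of 5 gene starts show what the classes below look like as sequence. Each is the 200 bases before the start, written 5′ to 3′ on the strand of the gene, read from NCBIM37 (mm9), and CpGs are in capitals. No annotated exon overlaps any of them. Sox2 (chr3:34548727-34548926, plus strand) stands for CpG-rich promoters without 5mC, Dpep3 (chr8:108503320-108503519, minus strand) for the few CpG-dense promoters with it, and Plagl1 (chr10:12810297-12810496, plus strand) for imprinted promoters of intermediate level, which are a minority of the imprinted genes. Alb (chr5:90889715-90889914, plus strand) stands for CpG-poor promoters with 5mC and Dppa2 (chr16:48310390-48310589, plus strand) for CpG-poor promoters without it.
Sox2: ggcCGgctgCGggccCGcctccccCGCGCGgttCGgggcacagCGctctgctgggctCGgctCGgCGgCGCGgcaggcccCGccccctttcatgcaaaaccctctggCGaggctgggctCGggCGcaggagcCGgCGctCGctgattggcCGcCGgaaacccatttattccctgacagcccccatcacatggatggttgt
Dpep3: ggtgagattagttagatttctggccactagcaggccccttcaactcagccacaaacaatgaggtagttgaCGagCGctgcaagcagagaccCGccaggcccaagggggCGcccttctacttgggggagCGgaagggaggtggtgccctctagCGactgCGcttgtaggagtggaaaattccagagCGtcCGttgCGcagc
Plagl1: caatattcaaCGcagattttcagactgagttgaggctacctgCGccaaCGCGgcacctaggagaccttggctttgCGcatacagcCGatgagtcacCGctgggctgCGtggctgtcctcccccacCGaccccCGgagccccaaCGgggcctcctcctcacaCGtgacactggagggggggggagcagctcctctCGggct
Alb: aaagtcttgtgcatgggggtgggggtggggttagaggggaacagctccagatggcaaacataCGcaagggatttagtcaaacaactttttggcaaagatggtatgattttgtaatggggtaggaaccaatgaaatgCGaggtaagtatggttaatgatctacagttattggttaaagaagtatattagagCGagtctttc
Dppa2: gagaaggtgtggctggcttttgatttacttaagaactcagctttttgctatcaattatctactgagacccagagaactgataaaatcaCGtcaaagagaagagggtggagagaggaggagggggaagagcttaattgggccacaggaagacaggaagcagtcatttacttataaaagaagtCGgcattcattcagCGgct
In Sox2, the pluripotency transcription factor, none of 718 reads over the 22 CpGs printed was modified, which leaves a level of up to 0.512%. In Dpep3, a dipeptidase gene expressed in testis, 126 of 300 reads over 10 CpGs were modified (42.0%, 95% interval 36.4 to 47.8), and single CpGs ran from 20% to 55.9%. The 13 CpGs of Plagl1, an imprinted zinc finger gene, had 61 modified reads of 111 (55.0%, 95% interval 45.2 to 64.4) and ran from 40% to 66.7%. Alb, which encodes serum albumin, and Dppa2, a gene of pluripotent cells, each had 3 CpGs in this stretch, yet 46 of 58 reads were modified in Alb (79.3%, 95% interval 66.6 to 88.8) and 0 of 84 in Dppa2, which leaves up to 4.30%. The stretches of Alb and Dppa2 thus had the same number of CpGs and opposite levels, and those of Dpep3 and Plagl1 had levels that lay between. The classes below are set on the whole window: Dpep3 reached 61.1% there, above its 42.0% in the printed stretch.

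Most promoters carried next to no 5mC. The median level over the 18876 genes was 2.47%, with quartiles at 0.395% and 48.7%. Its 95% interval, 2.34 to 2.61, comes from the ranks of the genes. That interval treats genes as a random sample and does not measure counting error. The median moved with the window: it was 0.478% within 250 bp of the start (16736 genes), 8.11% within 1000 bp (20456 genes) and 0.484% on the downstream side alone (17005 genes). The minimum was applied again in each window, so the genes differed as well as the window. A level below 5% was found in 10991 genes (58.2%), and 60 genes had no modified read at all. The distribution had a second, broader hump: 1741 genes lay between 60% and 70% and 1616 between 70% and 80%, against 428 between 30% and 40%. Levels near full methylation were rare, as 309 genes reached 80% and 2 reached 90%, Zfp445 (90.7%, 235 of 259 reads) and Olfr457 (90.7%, 117 of 129 reads). Pooled over all reads of all promoters, the level was 5.44%.

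**Figure D1:**
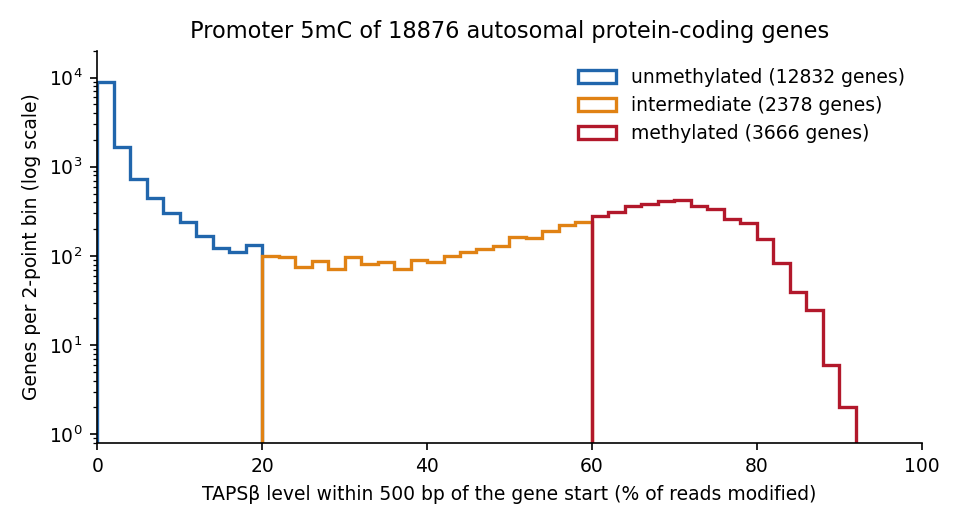
Number of genes (log scale) in 2-point bins of the TAPSβ level within 500 bp of the gene start, drawn as outlines for the unmethylated, intermediate and methylated classes. The 18876 genes form a sharp peak next to 0 and a broad hump around 70%, with fewer genes between.

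Promoters were called methylated at a level of 60% or more, unmethylated below 20% and intermediate between. By these limits 3666 genes (19.4%) were methylated, 2378 (12.6%) intermediate and 12832 (68.0%) unmethylated. The first and second of these counts depend on the limit and the window: 1925 genes were methylated with the limit at 70% and 309 with it at 80%. On the upstream side alone 15574 genes reached the minimum and 1670 were methylated. Intermediate genes numbered 1407 with the methylated limit at 50% and 5735 with it at 80%. The limits do not fall in gaps: the genes next to 60% were Olfr1281, Defb45 and Cacna1a at 60% and Calhm1 below them at 59.97%, and those next to 20% were Lypd3, Cyp4f15 and Slc13a3 at 20% and Pcdhb4 below them at 19.97%. The interval of 1962 genes (10.4%) crossed a limit. The median level was 70.4% in the methylated class, 46.5% in the intermediate class and 0.720% in the unmethylated class.

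Depth differed between the classes, since a promoter with more CpGs collects more reads. The median gene had 1509 reads, a methylated one 266 and an unmethylated one 2049. The median width of the interval was 11.1 percentage points in the methylated and 0.801 in the unmethylated class, and it depends on the level as well as on depth. Of the 2542 genes left out, 1706 have fewer than 5 CpGs in the window and could not reach the minimum, and 417 have 20 or more. Of those left out, 676, some of them with many CpGs, had no cytosine with reads in the table used here; whether reads were lacking at these positions is not known, and these genes were not analysed here. As the strands of DNA are read separately, each gene gives a pair of values: over 18808 genes with 50 reads on each strand, 94.2% fell in the same class on both and none was methylated on one strand and unmethylated on the other.

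The reads that set the classes can be split by cytosine. Differences between the classes in these shares largely follow from how the classes were chosen and are a description. Among cytosines with at least 5 reads, 97.6% of those in unmethylated promoters lay below 20%, while in methylated promoters 62.1% lay between 20% and 80% and 36.5% at 80% or more. In intermediate promoters 67.4% of the cytosines were themselves between 20% and 80%, 24.5% were below 20% and 8.16% were at 80% or more. The middle range thus held most cytosines in both of these classes. A sharp border at the gene start was found in 69 of the 2139 intermediate genes with 50 reads on each side (3.23%), with 60% or more on one side of the start and below 20% on the other, and 1048 (49.0%) were intermediate on both sides.

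The classes were set by the level within 500 bp of the start, so heights inside that window follow from the choice and are a description. Around the start, unmethylated promoters formed a trough whose lowest point lay just past the start, at 0.575% in the first 100 bp of the gene. At 3000 bp upstream the same genes were at 47.6%. Their upstream side was higher than their downstream side, with medians of 1.06% and 0.303%. The level of methylated promoters was 57.5% at 3000 bp upstream, dipped within the window to 68.3% in the 100 bp before the start, was 72.3% at 300 to 399 bp past it and 55.6% at the far downstream end. Intermediate promoters dipped to 34.5% in the 100 bp before the start, from 52.2% at 3000 bp upstream.

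**Figure D2:**
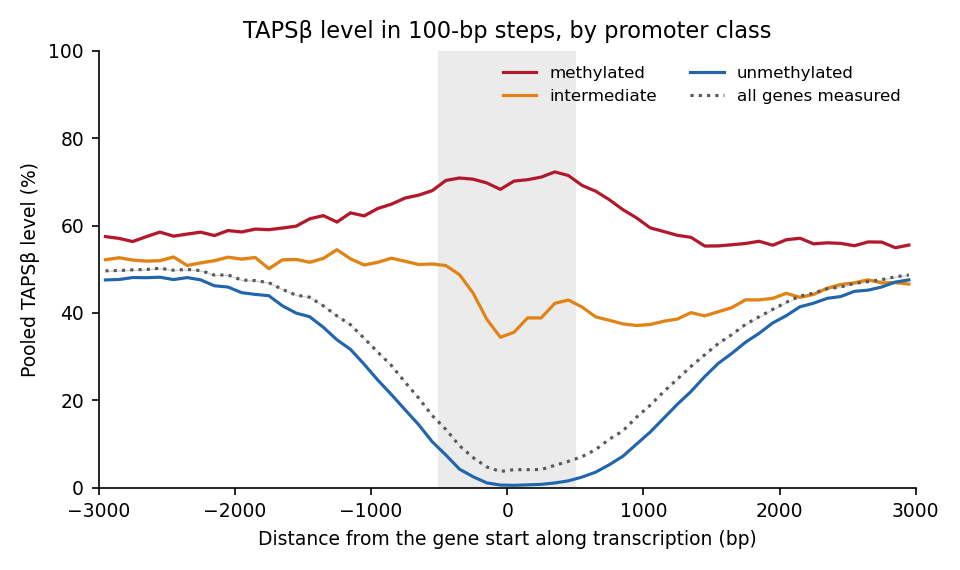
TAPSβ level pooled over all reads in 100-bp steps from 3000 bp before to 3000 bp after the gene start, for each class and for all genes measured; bands (narrower than the lines) are 95% binomial intervals and the grey area is the window that set the classes. Unmethylated promoters fall from 47.6% to 0.575% at the start, while methylated ones rise to 72.3%.

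Promoter 5mC fell as the number of CpGs in the window rose. Of 2149 genes with at most 9 CpGs, 73.1% were methylated and 2.23% unmethylated. Of the 3083 genes with 10 to 19 CpGs, 55.1% were methylated, and of the 1626 with 20 to 29 CpGs, 21.6%. At 30 to 39 CpGs 3.26% of 1290 genes were methylated and 82.9% unmethylated. All 2158 genes with 80 to 99 CpGs (median 0.332%) and all 1616 with 100 or more (median 0.246%) were unmethylated.

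The change from one state to the other was gradual and centred on 20 to 27 CpGs. The median level was 56.9% in the 249 genes with 16 CpGs, 44.7% in the 202 genes with 20, 27.0% in the 159 genes with 25 and 10.1% in the 126 genes with 27. Between 20 and 39 CpGs, 61.1% of 2916 genes were unmethylated. Across all genes, Spearman's rho between level and CpG number was -0.84, a description across genes, which share 1 library and are not replicates. Within the methylated class rho was -0.012, close to 0, within the intermediate class -0.40 and within the unmethylated class -0.61. Among genes with fewer than 20 CpGs it was -0.25. The classes are cut on the level itself, which narrows the range of levels within each. Reads per gene rise with CpG number, and the part of depth in these values was not tested.

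**Figure D3:**
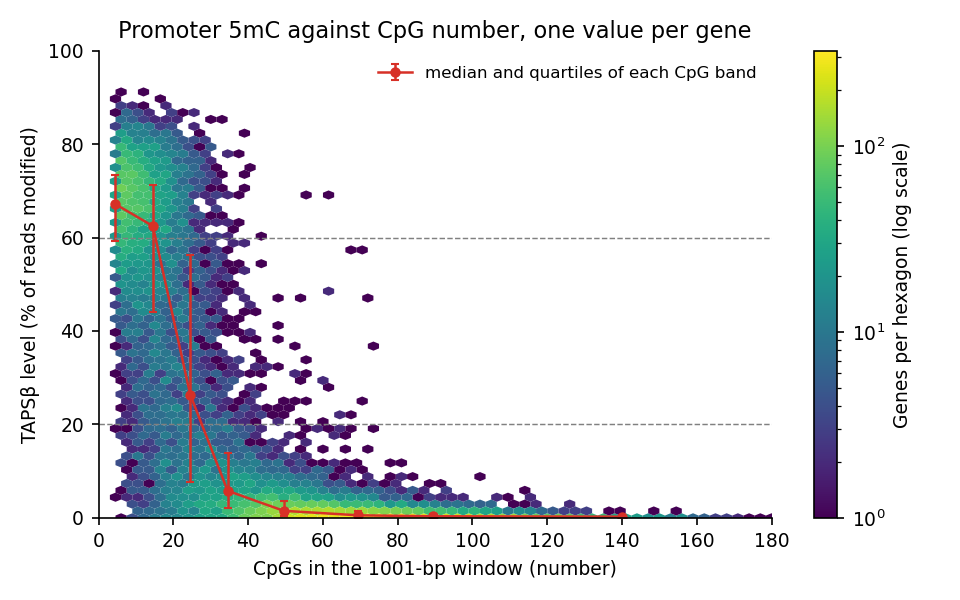
TAPSβ level of each gene against the number of CpGs in its window; hexagons are shaded by the number of genes (log scale), red points with bars are the median and quartiles of each band of CpG number, and dashed lines are the class limits. The median is 67.1% for genes with at most 9 CpGs and 62.5% for those with 10 to 19, genes above 40 lie near 0, and a thin scatter of CpG-rich genes stands above 20%.

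CpG-rich promoters with 5mC were few, and they can be named. Among 7226 genes with 60 or more CpGs, 7211 were unmethylated, 14 intermediate and 1 methylated. With the limit at 40 or more CpGs, 68 of 10728 genes (0.634%) were at 20% or more and 4 (0.0373%) were methylated. These 4 were Nap1l5 (68.5%, 55 CpGs), an imprinted gene of the nucleosome assembly protein family, Dpep3 (61.1%, 43 CpGs), Gm10462 (74.3%, 41 CpGs) and a record of Flg (68.4%, 62 CpGs). Flg encodes filaggrin, a protein of the skin barrier made of tandem repeats. Its 174 reads came from 34 cytosines, and a second record of Flg was at 49.0% with 200 reads. The 210 reads of Gm10462 also came from 34 cytosines and lay almost wholly upstream of the start. The values of Flg and Gm10462 thus rest on part of each window. The interval of Dpep3, 57.6 to 64.5, crosses the limit of 60%. Nap1l5 had 359 reads over 106 cytosines, where the median gene had 15.1 reads per cytosine.

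The 14 intermediate genes with 60 or more CpGs included 2 imprinted and 5 germline genes. Plagl1 (58.1%, 266 of 458 reads) and Nnat (46.5%, 242 of 520 reads), a gene of the developing brain, are imprinted, and their reads lay over 136 and 140 cytosines, also at low depth. Fkbp6 (48.4%, 475 of 982 reads), Dazl (37.1%, 438 of 1182), Slc25a31 (30%, 308 of 1026), Mael (27.1%, 349 of 1286) and Sycp1 (21.7%, 219 of 1011) are used in germ cells: Dazl encodes an RNA-binding protein, Mael a protein of the transposon-silencing piRNA pathway and Sycp1 a bar of the synaptonemal complex that joins chromosomes in meiosis. Dazl has another coding start 707 bp further in, with 74 CpGs, where the level was 6.79%. The others were Slc33a1 (57.6%, from 12 cytosines and 139 reads), the second Flg record, Gm10110 (30.3%), Atf7ip (25.3%), 4933416C03Rik (21.7%), 1190002H23Rik (21.4%) and Sec1 (20.4%). The intervals of Sycp1, 4933416C03Rik, 1190002H23Rik and Sec1 cross the limit of 20%, and those of Plagl1 and Slc33a1 cross 60%.

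Unmethylated CpG-poor promoters were more frequent. Among 5232 genes with fewer than 20 CpGs, 391 (7.47%) were unmethylated, 209 genes lay below 10%, and 4 of these had no modified read. The 4 were Amt (0 of 716 reads, up to 0.514%), which encodes a subunit of the glycine cleavage system, Ctnnd1 (0 of 591, up to 0.622%), which encodes p120-catenin of cell junctions, Spp1 (0 of 403, up to 0.911%), which encodes osteopontin, and Gm14124 (0 of 347, up to 1.06%). The genes that followed had 1 or 2 modified reads each, among them Stmn2 (1 of 650), Adipor2 (1 of 629), Mmp11 (1 of 575), Trim34a (1 of 420) and Dppa2 (1 of 384). Adipor2 encodes an adiponectin receptor, Mmp11 a matrix protease and Trim34a a tripartite motif protein.

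Several families of sensory receptors and of epithelial and secreted proteins were methylated in the main, and their CpG numbers were low. They are therefore set beside genes with fewer than 20 CpGs, of which 62.5% were methylated, as well as beside all genes. Of 601 olfactory receptor genes measured of 1106 annotated, 515 were methylated, 84 intermediate and 2 unmethylated, with a median of 70.1% against 2.47% over all genes. The 2 unmethylated were Olfr95 (6.25%) and Olfr658 (19.08%). The receptors had a median of 7 CpGs, and 475 of those not measured had fewer than 5. Of the 580 with fewer than 20 CpGs, 503 were methylated. Of 206 vomeronasal type 1 receptors annotated, 46 were measured and 33 of these were methylated; Vmn1r90 (0.245%, 132 CpGs) was the only unmethylated one. Trace amine receptors (11 methylated of 12 measured), keratin-associated proteins of hair (30 of 38), defensins of epithelial defence (18 of 24, with 53 annotated), placental prolactin relatives (15 of 17) and clade A serpins of the liver (12 of 16) were methylated in the main, beside 19.4% of all genes. With fewer than 20 CpGs, the methylated members were 33 of 45 vomeronasal type 1 receptors, 8 of 9 trace amine receptors, 28 of 35 keratin-associated proteins, 17 of 20 defensins, 15 of 17 prolactin relatives and 12 of 15 serpins, shares above the 62.5% of all genes so poor in CpGs but much nearer to it than to 19.4%. Other families of these kinds were lower: 16 of 27 vomeronasal type 2 receptors, 6 of 14 pregnancy-specific glycoproteins and Ceacam genes, 4 of 16 kallikreins and 1 of 4 secretoglobins were methylated, and the rest of these 4 families was intermediate but for 1 unmethylated kallikrein.

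Families of immune signals and of metabolism were mixed, beside 19.4% methylated and 12.6% intermediate over all genes. Interleukins had 24 methylated of 34, from Il17a (81.2%) down to Il17d (1.56%, 97 CpGs), and chemokine ligands 16 of 30. With fewer than 20 CpGs these were 21 of 27 and 16 of 20, beside 62.5% of all genes in that band. Interleukin receptors had 17 methylated and 15 unmethylated of 36: all 17 methylated were among the 18 with fewer than 20 CpGs. Of 70 cytochrome P450 genes 38 were methylated, all among the 53 with fewer than 20 CpGs, among them Cyp7a1 (80.5%), the rate-limiting enzyme of bile acid synthesis, and 20 unmethylated, among them Cyp20a1 (0.347%). Keratins split into 20 methylated, 22 intermediate and 4 unmethylated, with 10 methylated of the 14 that had fewer than 20 CpGs. The lowest were Krt222 (3.60%), Krt18 (6.37%) and Krt8 (17.5%), and Krt8 and Krt18 encode the keratin pair of simple epithelia.

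**Figure D4:**
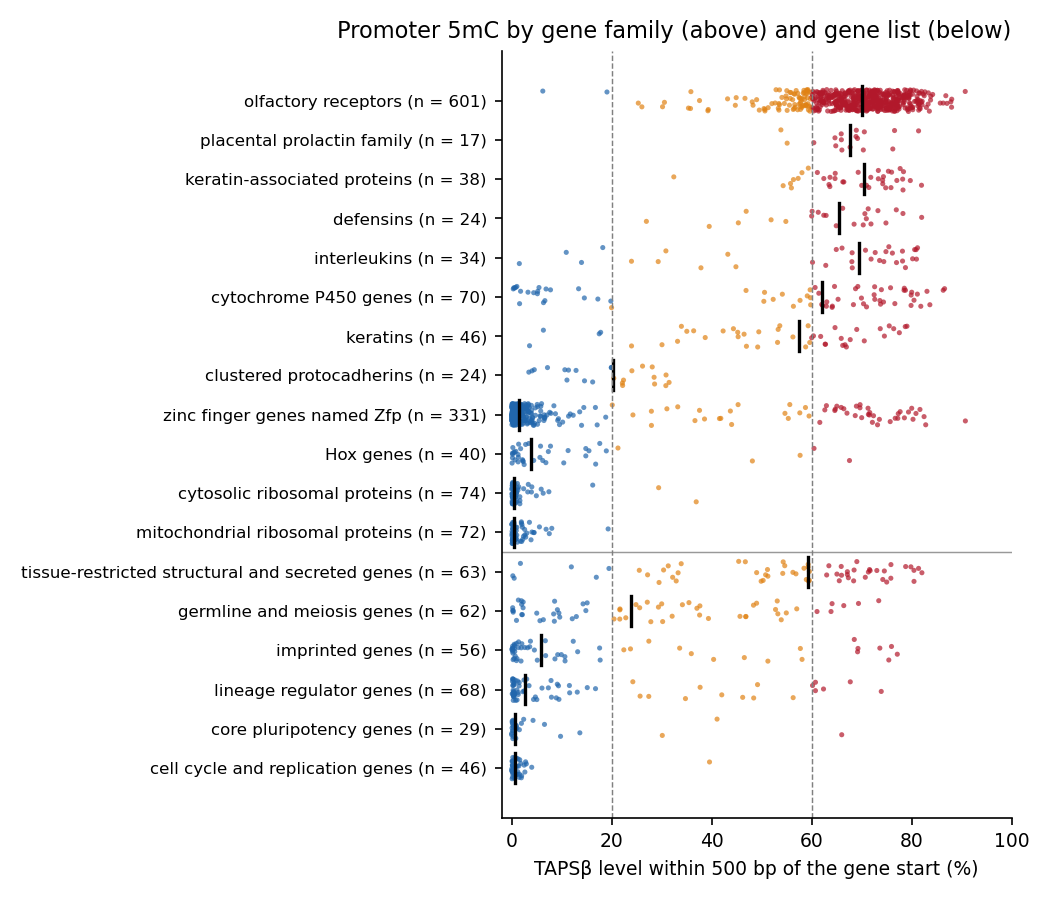
TAPSβ level of each measured gene (points, coloured by class) for 12 gene families above the line and 6 gene lists below it; black bars are medians and dashed lines the class limits. Olfactory receptors gather around 70.1%, ribosomal proteins lie next to 0, and germline genes spread from 0.231% to 73.4% with a median of 23.9%.

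Families needed by every cell had few promoters with 5mC and many CpGs; of all genes 68.0% were unmethylated, and of those with 40 or more CpGs 99.4%. None of 74 cytosolic ribosomal protein genes was methylated (median 0.423%, 72 unmethylated), and the 2 intermediate ones were Rpl3l (36.9%), a form used in muscle, and Rps2 (29.4%). All 72 mitochondrial ribosomal proteins, 25 RNA polymerase subunits and 30 spliceosome genes were unmethylated, with maxima of 19.3%, 3.62% and 3.05%. The mitochondrial family as defined left out 1 gene with an Mrps symbol that was methylated (70.1%). Methylated members were Ndufb8 (67.3%, 12 CpGs) among 31 NADH dehydrogenase subunits and Eif4g1 (72.0%) among 53 initiation factors. Of 50 proteasome subunits 47 were unmethylated, and the highest was Psmf1 (45.7%, 9 CpGs), an inhibitor. Replication-dependent histones had 50 unmethylated of 52; the 2 others were Hist1h1t (40.6%) and Hist1h2aa (21.3%), which encode histones of the testis.

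Annotated copies of ribosomal protein genes differed from the genes they are named after. Of 48 measured genes with Rpl or Rps symbols that end in ps and a number, 35 were methylated, 9 intermediate and 4 unmethylated, up to 82.2% in Rpl26-ps4. Of all genes 19.4% were methylated, 12.6% intermediate and 68.0% unmethylated. The 26 of them with 20 to 39 CpGs had 13 methylated, against 394 of 2916 genes in that band. Reads of near-identical copies can be assigned to the wrong one, so single values here are uncertain.

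Developmental regulators were mostly unmethylated as well, some groups at shares near the 68.0% of all genes. Of 40 Hox genes, which pattern the body axis, 35 were unmethylated with a median of 3.94%, and the 2 methylated, Hoxd4 (67.6%) and Hoxc4 (60.5%), had 13 and 17 CpGs. Forkhead genes had 35 unmethylated of 40 and Wnt ligands 18 of 19, and all 10 Frizzled receptors were unmethylated. Fibroblast growth factors had 14 unmethylated of 20 and bone morphogenetic proteins 8 of 10, each with 2 methylated members. Among 68 lineage regulators 52 were unmethylated (median 2.78%), including Twist1 (0.140%), Cdx2 (0.362%), Sox9 (0.371%), Gata6 (0.619%) and T (1.08%). All 46 of the list with 40 or more CpGs were unmethylated, beside 99.4% of all genes in that band. The 6 methylated and 10 intermediate genes of the list, with levels up to 73.9%, had fewer CpGs. Among them were Myf5 (62.4%, 27 CpGs), Myog (46.2%, 30 CpGs), Hnf4a (49.2%, 16 CpGs) and Otx2 (27.4%, 24 CpGs).

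Zinc finger genes named Zfp spanned the whole scale. Of 331 measured, 275 were unmethylated, 36 methylated and 20 intermediate, beside 68.0%, 19.4% and 12.6% of all genes. Of the 36 methylated, 35 were among the 60 Zfp genes with fewer than 20 CpGs, a band in which 62.5% of all genes were methylated. Zfp13, Zfp40 and Zfp955a had no modified read, while Zfp445 was among the highest of all genes. The clustered protocadherins, neuronal adhesion proteins whose many starts are chosen cell by cell, kept to the lower part: 12 of 24 were intermediate (12.6% of all genes were), none was methylated, and all lay between 3.46% and 31.5%. Their median was 17.5 CpGs, and of all genes 33.8% with 10 to 19 CpGs and 34.6% with 20 to 29 were intermediate. Pcdhb genes made up 21 of the 24.

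Genes were also grouped by the letters that open their symbols. There were 87 such stems with at least 20 measured genes, and in 17 of them none was methylated. Over all genes 19.4% were methylated, but 62.5% of those with fewer than 20 CpGs and 0.0373% of those with 40 or more, and shares per stem were not adjusted for CpG number. The highest shares were those of Olfr (85.7%), Krtap (78.9%), Defb (75%), Vmn (67.6%), Il (59.2%), Cyp and Clec (54.2% each), Krt (43.1%), Rpl (35.9%, through the copies above) and S (35.0%, mainly the S100 calcium-binding proteins). The 17 stems without a methylated gene were ordered by median level, and the lowest 10 were Cep (centrosomal proteins, median 0.301%), Med (mediator subunits, 0.309%), Ap (0.334%), Polr (0.352%), Gtf (general transcription factors, 0.368%), Zbtb (0.388%), Zdhhc (0.425%), Mrpl (0.428%), Ddx (0.489%) and Tbc (0.554%).

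Most genes of pluripotency carried almost no 5mC at their promoters. Of 29 genes, 26 were unmethylated, beside 68.0% of all genes, and the median was 0.768%. The list had a median of 30 CpGs, and of all genes with 20 to 39 CpGs 61.1% were unmethylated. Pou5f1, which encodes Oct4, had 0 modified of 1076 reads (up to 0.342%) over 30 CpGs, and Sox2 3 of 2716 (0.110%). Of the 5 genes of the list with fewer than 20 CpGs, 4 were unmethylated, beside 7.47% of all genes in that band: Dppa2 (0.260%), Fbxo15 (0.293%, 1 of 341 reads), Dppa4 (0.855%, 5 of 585) and Nanog (9.80%, 70 of 714). Nanog, a core pluripotency factor, had no modified read upstream of its start. The exceptions were Dppa3 (30.1%, 151 of 501), a maternal factor that protects 5mC patterns, Esrrb (41.1%, 226 of 550) and Nr5a2 (66.0%, 101 of 153), both nuclear receptors.

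The values of Esrrb and Nr5a2 belong to their outermost starts. At a coding start 6797 bp further into Nr5a2 the level was 0.275% (727 reads), and in Esrrb it was 1.26% at a start 60766 bp further in. Other genes had such starts: of the 3666 methylated genes, 237 (6.46%) were unmethylated at their coding start of lowest level. Its median distance from the outermost start was 9705 bp. That start was picked by its level, so a gene with many starts has more occasions to be counted. Of the methylated genes 1054 have 2 or more coding starts, but the 237 were not limited to these. The median CpG number was 12 at the methylated outer start and 57 at the other. Of all genes with 40 or more CpGs 99.4% were unmethylated. Ctnnb1, which encodes β-catenin, went from 70% to 0.190%, Furin, a protease, from 69.3% to 0.398%, Foxk2 from 69.9% to 0.303%, Runx1 from 73.9% to 0.220% and Gata4 from 67.7% to 1.58%. Which start these cells use was not measured.

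Enzymes that write and erase 5mC had mostly unmethylated promoters, 16 of 18, and 14 of the 18 had 40 or more CpGs, where 99.4% of all genes were unmethylated. Dnmt1, the maintenance methyltransferase, was at 0.658%, Dnmt3b at 2.17% and Dnmt3a at 11.2%, and Tet1, Tet2 and Tet3, which oxidise 5mC, were at 5.92%, 0.199% and 2.02%. The outermost Dnmt3a start lay on a border, with 48.3% upstream and 1.63% downstream. Dnmt3l, a cofactor of the de novo enzymes, was methylated at its outermost start (65.7%) and at 2.98% at a start 7895 bp further in. Smug1, a uracil glycosylase, was intermediate (49.1%).

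Germline and meiosis genes were often intermediate, also where CpGs were many. Of 62 measured genes, 26 were unmethylated, 30 intermediate and 6 methylated, with a median of 23.9% and a median of 42 CpGs. Among the 33 with 40 or more CpGs, 14 were at 20% or more, beside 0.634% of all genes in that band. This list and the others were chosen with earlier results of these data known, so such shares describe the lists and are no test. The methylated ones were Tdrd7 (73.4%, and 2.34% at a start further in), Zp1 of the egg coat (69.4%), Tnp1 (66.4%) and Prm2 (64.1%), which package sperm chromatin, Tex101 (63.9%) and Dpep3. Genes of the piRNA pathway were found in more than one class: Asz1 (49.0%), Piwil1 (39.4%), Mov10l1 (37.6%), Piwil2 (30.2%) and Piwil4 (53.9%) were intermediate, and Tdrd1 (14.3%), Tdrd12 (9.17%) and Tdrd6 (6.36%) unmethylated. Of the meiotic chromosome axis, Hormad1 (32.1%), Sycp2 (24.9%) and Sycp3 (22.8%) were intermediate. Others were low at similar CpG numbers, such as Prdm9 (0.242%), which sets recombination sites, Dmc1 (2.02%), a recombinase, and Ddx4 (12.1%), the Vasa helicase.

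Imprinted genes fell into all classes. As background, many of them are governed by a control region away from their own start. Of 56 measured, 39 were unmethylated, 10 intermediate and 7 methylated, with a median of 5.96%, so that 69.6% were unmethylated beside 68.0% of all genes and 12.5% methylated beside 19.4%. Those with 40 or more CpGs and a level of 20% or more were Nap1l5, Plagl1 and Nnat. Peg3 (13.2%), Zrsr1 (17.6%), Mcts2 (17.7%) and Peg10 (9.23%), expressed from the paternal copy, lay lower. Mest was at 69.3% at its outermost start and at 13% at a CpG-rich start 14503 bp further in. Th (77.1%), Ddc (75.4%) and Slc22a2 (76.0%) were methylated with 12, 13 and 25 CpGs.

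Tissue-restricted genes were rarely unmethylated. Of 63 measured, 28 were methylated, 29 intermediate and 6 unmethylated, with a median of 59.3%. Of the 41 with fewer than 20 CpGs 23 were methylated and 1 unmethylated, beside 62.5% and 7.47% of all genes in that band. Liver genes such as Afp (81.4%), Alb (80.5%) and Ttr (74.2%), pancreatic genes such as Ins1 (79.8%) and Cpa1 (78.8%), and the kidney transporter Slc12a1 (82.0%) were among the highest. Epo (0.258%, 52 CpGs), the hormone of red cell formation, and Apoh (0.528%, 84 CpGs), a plasma protein, were unmethylated. In 2 lists of genes used by every cell most members had 40 or more CpGs, 28 of 37 and 41 of 46, and all of these were unmethylated, beside 99.4% of all genes in that band. Of 37 genes of glycolysis and the tricarboxylic acid cycle 35 were unmethylated (median 0.652%), and the exceptions Hk1 (58.7%) and Aldoa (29.7%) had 6 and 19 CpGs. Of 46 cell cycle genes 45 were unmethylated (median 0.632%), and Cdkn1a, an inhibitor of cell cycle kinases, was at 39.6% at its outermost start and at 0.388% 2793 bp further in.

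The other libraries give a view of the same promoters that the classes did not use. In CAPS the pooled level was 3.09% (95% interval 3.06 to 3.13) at methylated promoters, 5.83% (5.77 to 5.88) at intermediate ones and 1.05% (1.04 to 1.05) at unmethylated ones. By steps of TAPSβ level it rose from 0.962% below 10% to 6.77% (6.64 to 6.91) between 30% and 40% and fell to 2.11% (2.00 to 2.22) between 80% and 90%. Within promoters of fewer than 20 CpGs the intermediate class was again highest (5.84%), but the unmethylated class (3.64%) lay above the methylated one (3.01%). PS lay between 0.233% and 0.335% in all classes. Each method also reads a small share of unmodified cytosines as modified, these levels were not corrected for it, and the lowest of them cannot be told apart from it here. TAPSβ and CAPS come from separate libraries without replicates, and the difference between them was not tested.

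CAPS levels differed between lists of promoters, but the lists were not matched for TAPSβ level. Pooled over all genes, CAPS was 6.27% at TAPSβ levels of 40% to 50%, 5.08% at 50% to 60% and 3.63% at 60% to 70%. In all 64 intermediate promoters with 40 or more CpGs it was 5.08%. The 13 intermediate germline genes with 40 or more CpGs had a pooled CAPS level of 5.60% (95% interval 5.12 to 6.11), from 1.80% in Fkbp6 to 10.5% in Hormad1. Over all CpG numbers the 30 intermediate germline genes had 5.93% (5.56 to 6.31) and the 10 intermediate imprinted genes 2.97% (2.49 to 3.52), the latter up to 12.05% in Ins2. The 2 intermediate imprinted genes with 40 or more CpGs had 1.06% (0.688 to 1.56): Plagl1 had 11 modified of 1003 reads (1.10%) and Nnat 14 of 1354 (1.03%). These 2 genes supplied 2357 of the 4339 reads of the 10 intermediate imprinted genes and 25 of their 129 modified reads. The pooled 2.97% thus leans on them. Nap1l5 had 7 of 913 reads (0.767%), while Dpep3 had 43 of 611 (7.04%). These 3 imprinted promoters were thus near the CAPS level of unmethylated promoters, although their TAPSβ levels were 46.5% to 68.5%. Those TAPSβ levels rest on the low depths given above. The highest CAPS value among the pluripotency genes was that of Esrrb, with 37 of 298 reads (12.4%).

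**Figure D5:**
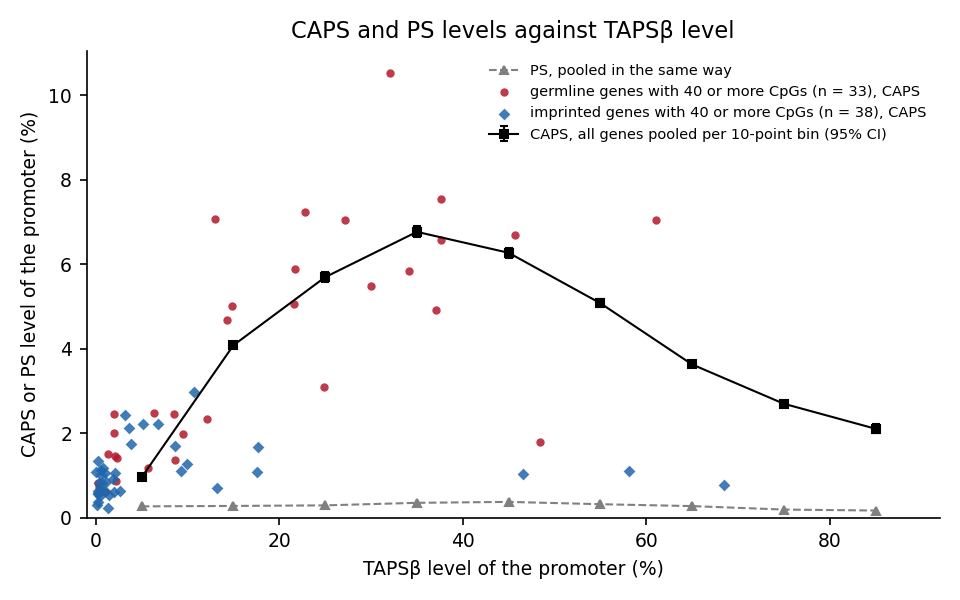
CAPS level (5hmC, black squares with 95% binomial intervals) and PS level (grey triangles), pooled over genes in 10-point steps of TAPSβ level, with single germline (red) and imprinted (blue) genes of 40 or more CpGs as points of CAPS level. The pooled CAPS level peaks at 6.77%, and the 3 imprinted genes at 46.5% to 68.5% TAPSβ lie at 1.10% or below.

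Short motifs were counted from 250 bases before to 50 bases after the start, on both strands. CACGTG, the E-box read by Myc and Max proteins, was found in 17 of the 68 promoters with 40 or more CpGs and a level of 20% or more (25%), in 10.8% of the 10660 others of that CpG number and in 8.39% of all promoters. It was found in 12 of 36 germline promoters at 20% or more (33.3%) and in 5 of 26 below (19.2%). GCGGGAA, an E2F-type site, was found in 13 of the 68 (19.12%) and in 9.38% of the 10660. In the germline list it was found in 4 of 36 at 20% or more (11.1%) and in 6 of 26 below (23.1%). Among promoters with fewer than 20 CpGs both motifs were rarer. The E-box was found in 18 of 391 unmethylated (4.60%) and 115 of 3268 methylated promoters (3.52%). The E2F-type site was found in 6 (1.53%) and 21 (0.643%) of these. Several of these counts are small, and no order is drawn from them in the germline list or in CpG-poor promoters. TATAAA, the TATA box, was found in 25.4% of the 3268 methylated promoters with fewer than 20 CpGs (62.5% of the genes in that band), in 9.97% of the 391 unmethylated ones and in 11.3% of all. CCGGAAG, an ETS-type site, was found in 1.56% and 5.63% of these groups and in 11.9% of all promoters. Among the 68 promoters TATAAA was found in 10 (14.7%), against 5.66% of the 10660, and CCGGAAG in 11 (16.2%), against 18.0%. In the germline list TATAAA was found in 9 of 36 at 20% or more (25%) and 2 of 26 below (7.69%). CCGGAAG was found in 4 (11.1%) and 3 (11.5%) of these. All but TATAAA hold a CpG, so their shares move with CpG number. The share of TATAAA differed with CpG number too: among unmethylated promoters it was 9.97% with fewer than 20 CpGs and 5.66% with 40 or more. Matches of TATAAA were counted at any position of the stretch, so they need not be working TATA boxes.

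Another gene start within 1000 bp was present for 17.9% of unmethylated genes, 2.69% of intermediate and 2.15% of methylated genes. Between chromosomes the share of methylated promoters ran from 14.3% on chromosome 12 to 24.9% on chromosome 14, whose genes had medians of 55 and 38 CpGs.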

How the data were processed

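TAPSβ, CAPS and PS were each applied once to gDNA of E14 mESCs. According to the processing notes and the methods, the authors trimmed reads with Trim Galore (0.3.1), mapped them with BWA (0.7.12) to mm9 with spike-in sequences, removed duplicates with Picard (2.3.0), kept reads above a mapping quality limit and used asTair to call conversions. What they deposited is, per CpG cytosine, a raw count of reads with and of reads without the modification, and the fraction of modified reads, which was not used further. Incomplete conversion lowers a TAPSβ level and false conversion raises it, and levels were not corrected for either. The TAPSβ library listed 39910857 cytosines with a median depth of 13 reads.

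Gene starts came from GENCODE M1 and CpGs from NCBIM37, the same assembly as mm9. Reads were summed over cytosines with at least 1 read in the 1001-bp window around each start, in Python (3.11.15) with numpy (2.4.6), scipy (1.17.1) and pandas (2.3.3), and the steps were tested on simulated data. With 1 library there was no test. Named were genes of fixed lists and families, stems with at least 20 genes and the 10 highest and lowest shares among them, the 15 CpG-rich genes (60 or more CpGs) with the highest level and the 15 CpG-poor genes (fewer than 20) with the lowest, CpG-rich intermediate genes, and the 3 genes on each side of a limit; the lowest and highest genes of a family, the 4 methylated genes with 40 or more CpGs, the copies of ribosomal protein genes and genes with a second start were named after their values were seen. Members, lists and motifs were chosen with earlier results of these data known. X and Y chromosomes and 2542 genes below the minimum were left out.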

Additional observations from a re-analysis of the deposited data

How the results depend on the processing

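Alternatives were run on the counts by class, the median level, rho, and the counts of methylated CpG-rich and unmethylated CpG-poor genes; families, lists, motifs, CAPS values, profiles and second starts had none. The rank correlation of level with CpG number stayed negative under each, but methylated genes were fewer than intermediate ones on the upstream side (1670 against 1993) and with the limit at 70% or 80%. No paired analysis was possible because each method has a single library, which leaves 1 value per method; no replicate could be left out. The count of unmethylated promoters stayed within 10529 to 13446 under all 17 alternatives run on it. The median level was 0.4782% with a window of 250 bp, 8.1081% with 1000 bp, 0.4843% on the downstream side alone, 1.5485% with minimums of 20 cytosines and 200 reads, 3.4851% without a minimum, 1.5545% on the plus and 1.5385% on the minus strand, 1.6383% with the coding start of lowest level per gene and 3.5856% without genes that share a start region. In the order just given, rho was -0.7523, -0.8502, -0.7479, -0.7963 and -0.8389, was -0.7879 on each strand, and was -0.8233 and -0.8545 for the last pair; on the upstream side alone it was -0.7205. Methylated genes numbered 2116 with 250 bp, 1670 on the upstream side, 1984 with the higher minimums, 1947 on each strand alone, 1925 with the limit at 70% and 309 at 80%. Intermediate genes numbered 1407 with the methylated limit at 50%, 4119 at 70%, 5735 at 80% and 1576 with the whole interval inside the class. Methylated CpG-rich genes, 1 as reported, numbered 0 with 250 bp, 4 with 1000 bp, 2 on either side alone, 2 over cytosines with 5 or more reads, 0 with the higher minimums, 3 without a minimum, 3 with the limit at 50%, and 0 at 70% or 80%; such small counts rest on few reads. Unmethylated CpG-poor genes numbered 209 with the limit at 10% and 273 to 568 under the other alternatives. A higher minimum or a single strand leaves fewer CpG-poor genes; the cause of the other shifts was not tested. In the methylated class, with 266 reads in the median gene, the median interval spans 11.1 points. Such a width depends on the level as well as on depth.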
